A study of Mus musculus with 8 samples.

Results

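Mast cell genes were followed in epididymal fat, a visceral white adipose depot attached to the testis and epididymis, through 10 listed genes out of 18820 genes with a value. They are 5 proteases of mast cell granules (*Tpsb2*, *Tpsab1*, *Cpa3*, *Mcpt4* and *Cma1*), 3 receptor genes (*Fcer1a*, *Ms4a2* and *Kit*), the histamine-forming enzyme *Hdc* and the transcription factor *Gata2*. Each gene is represented by its brightest probe set among those annotated to exactly 1 gene symbol. Tissue came from 4 wild-type (WT) and 4 *Sucnr1*-/- male mice with 1 array per mouse. All mice were on a C57BL/6 background and were offspring of intercrossed *Sucnr1*+/- parents. Both groups started a semi-synthetic low-fat diet (LFD) at an age of 8 to 10 weeks, ate it for 16 weeks and were killed at 24 to 26 weeks. In the *Sucnr1*-/- mice, which lack the receptor for succinate in every tissue, the gene was disrupted by a targeted cassette that carries lacZ and neo. The genes were chosen with the differences between these arrays known, that is, selected on the WT and *Sucnr1*-/- values given below. Those differences are therefore a description. No listed gene is given a p-value, and counts of listed genes past a threshold stand beside the share of all genes without being read as a test.

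Mast cells are tissue-resident immune cells that store histamine, heparin and proteases in granules and release them when IgE bound to the high-affinity receptor FcεRI meets antigen. Their survival depends on KIT, the receptor for stem cell factor. In mice, connective tissue mast cells carry the tryptase encoded by *Tpsb2*, the chymases encoded by *Mcpt4* and *Cma1* and carboxypeptidase A3, whereas mucosal mast cells carry the chymases encoded by *Mcpt1* and *Mcpt2*. Mast cells lie along vessels in white fat, and fat pads also hold other cells that express *Kit*, *Hdc* or *Gata2*, such as endothelial cells for *Gata2* and myeloid cells for *Hdc*.

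Values are log2 expression after robust multi-array average (RMA), which subtracts background, gives every array the same distribution of probe signals and summarises the probes of a set. A log2 difference of −1 is a halving of signal. The median of an array was 6.28 to 6.36. Over 35556 probe sets, pairs of arrays correlated at 0.981 to 0.993. *Sucnr1* was between 8.68 and 9.78 in the WT mice and between 5.41 and 7.11 in the *Sucnr1*-/- mice. Its log2 difference was −3.055 (SE 0.359; limma, adjusted p = 0.321), so even the disrupted gene was not called after adjustment. Adipocyte markers had a mean log2 level of 12.46 to 12.76 in WT and 12.68 to 12.74 in *Sucnr1*-/- mice, and epididymis markers of 4.53 to 4.95 and 4.62 to 4.71. Over all genes, limma called 0 of 18820 (0%) at an adjusted p under 0.05, and the test named in the study's statistics also called 0 after adjustment. Robust regression called 15, of which 0 were listed genes. At an unadjusted p under 0.05 limma counted 1284 genes (6.82%), of which 632 were lower in *Sucnr1*-/- mice (3.36%) and 652 higher (3.46%).

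Most granule proteases had lower signal in *Sucnr1*-/- mice. For 4 of the 5, *Tpsb2*, *Cpa3*, *Mcpt4* and *Cma1*, each *Sucnr1*-/- mouse lay below every WT mouse, and the same held for *Fcer1a*. In all, 5 of the 10 genes were separated in this way, where 1.87% of all genes were. These 5 were also the listed genes at an unadjusted limma p under 0.05 and lower (3.36% of all genes), and 0 of the 10 passed after adjustment. The median log2 difference, *Sucnr1*-/- minus WT, was −0.19 over the 10 genes and 0.01 over all genes, and 9 of the 10 means were lower (46.8% of all genes). The median over the 10 was −0.32 without *Sucnr1*-/- replicate 1. Because the tissue was measured in bulk, fewer mast cells and less of these RNAs per mast cell cannot be told apart.

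*Tpsb2* encodes the tryptase mMCP-6, a serine protease that is stored bound to heparin. Its log2 values were 7.50, 7.44, 7.91 and 7.73 in WT replicates 1 to 4 and 7.02, 6.72, 6.94 and 6.996 in *Sucnr1*-/- replicates 1 to 4. A gap of 0.42 separated the highest *Sucnr1*-/- mouse from the lowest WT mouse. The group means were 7.64 ± 0.22 (SD, n = 4) and 6.92 ± 0.14 (SD, n = 4). Their log2 difference was −0.73 (SE 0.12) or 0.605 of the WT signal. Of all genes, 110 had a lower difference. Leaving out any one mouse kept the difference between −0.79 and −0.64.

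*Cpa3* encodes carboxypeptidase A3, which removes C-terminal residues from peptides and is among the most abundant transcripts of mast cells. The WT mice were at 9.25, 9.12, 9.59 and 9.004 and the *Sucnr1*-/- mice at 8.59, 8.10, 8.62 and 8.70. WT replicate 3 was the highest, as for *Tpsb2*, and *Sucnr1*-/- replicate 2 the lowest. The log2 difference was −0.74 (SE 0.16), a ratio of 0.599, with 101 of all genes lower still.

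*Mcpt4* encodes mMCP-4, a chymase of connective tissue mast cells. Its values were 7.54, 7.65, 8.09 and 7.77 in WT mice and 7.24, 6.87, 7.15 and 7.24 in *Sucnr1*-/- mice. The order of the extremes repeated that of *Cpa3*, with WT replicate 3 highest and *Sucnr1*-/- replicate 2 lowest. The log2 difference was −0.64 (SE 0.13), a ratio of 0.642. The array has 3 probe sets that name *Mcpt4*. The other two are shared with *Cma2* and *Mcpt9*, stayed between 4.10 and 4.81 in all mice and differed by 0.003 and −0.04 on the log2 scale.

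*Cma1* encodes mMCP-5, the mouse counterpart of the alpha-chymases. Its values were 6.07, 6.301, 6.32 and 6.04 in WT mice and 5.65, 5.85, 5.86 and 5.94 in *Sucnr1*-/- mice. Of all genes, 39.4% had a lower mean signal. The groups were separated by 0.105, and the log2 difference was −0.36 (SE 0.09), a ratio of 0.780. Here the lowest *Sucnr1*-/- mouse was replicate 1, not replicate 2.

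*Tpsab1*, the tryptase gene of mMCP-7, stood apart from the other proteases. Its values were 4.82, 4.67, 4.74 and 4.79 in WT mice and 4.86, 4.67, 4.74 and 4.54 in *Sucnr1*-/- mice, so the groups overlapped over the whole WT range. The log2 difference was −0.05 (SE 0.08), which is smaller than its error. It was 0.005 without *Sucnr1*-/- replicate 4. Only 20.7% of all genes had a lower mean signal. RefSeq lists the gene in the C57BL/6J assembly as a transcribed pseudogene, and mice of this strain are known to lack the protein. Tryptase genes share sequence, and how far the probes of *Tpsb2* and *Tpsab1* cross-hybridise was not tested.

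**Figure D1:**
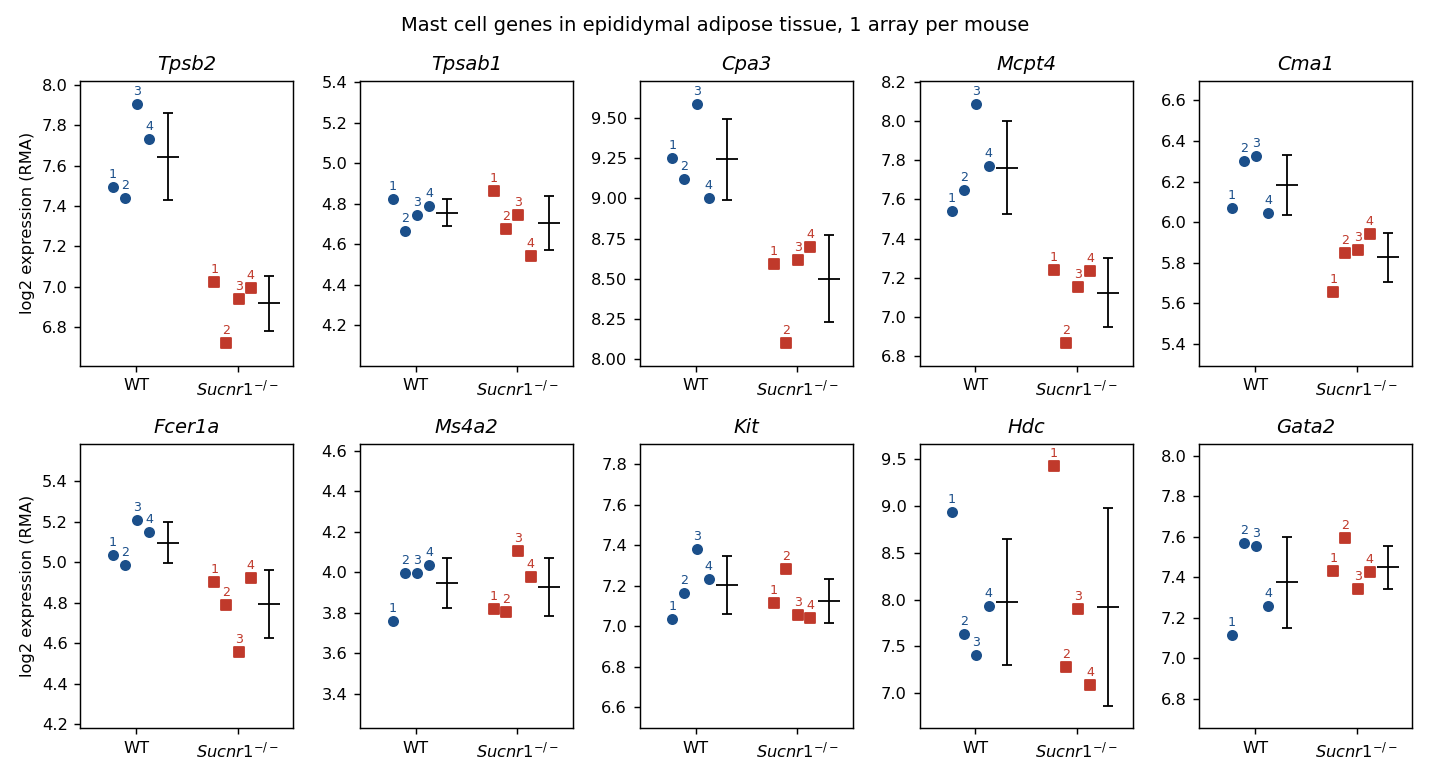
Log2 expression (RMA, vertical axes, each panel with its own range) of the 10 mast cell genes, WT as blue circles and *Sucnr1*-/- as red squares, with the replicate number above each point and the mean and SD as a black bar beside each group. For *Tpsb2*, *Cpa3*, *Mcpt4*, *Cma1* and *Fcer1a* every red point lies below every blue point, whereas the groups overlap for the other 5 genes.

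Among the genes whose groups did not overlap, the promoters of *Cpa3*, *Mcpt4*, *Cma1* and *Fcer1a* are shown because *Gata2*, itself listed, encodes a factor that binds GATA letters and is needed by mast cells. They hold the 250 bases before the start given by RefSeq (GRCm38.p6), 5′ to 3′ in the direction of transcription, with GATA matches on either strand in capitals. The letters searched were AGATAA and, with G as the last base, AGATAG. Both were also searched with T as the first base, that is, TGATAA together with the form TGATAG.
*Cpa3* (chr3:20242182-20242431, minus strand): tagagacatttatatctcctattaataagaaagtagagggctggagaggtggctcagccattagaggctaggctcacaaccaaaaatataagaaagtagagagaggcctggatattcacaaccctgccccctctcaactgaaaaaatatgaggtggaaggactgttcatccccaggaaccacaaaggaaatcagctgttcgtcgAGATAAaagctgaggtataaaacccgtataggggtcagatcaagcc
*Mcpt4* (chr14:56062311-56062560, minus strand): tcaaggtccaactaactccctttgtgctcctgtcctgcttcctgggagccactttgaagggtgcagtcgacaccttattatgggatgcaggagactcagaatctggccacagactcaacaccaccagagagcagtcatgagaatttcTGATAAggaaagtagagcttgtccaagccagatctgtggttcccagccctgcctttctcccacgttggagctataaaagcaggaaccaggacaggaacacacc
*Cma1* (chr14:55944676-55944925, minus strand): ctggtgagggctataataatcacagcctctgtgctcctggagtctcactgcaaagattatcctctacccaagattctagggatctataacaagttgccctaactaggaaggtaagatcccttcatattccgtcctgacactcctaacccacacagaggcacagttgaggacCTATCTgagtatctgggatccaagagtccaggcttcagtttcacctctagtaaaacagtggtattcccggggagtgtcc
*Fcer1a* (chr1:173227230-173227479, minus strand): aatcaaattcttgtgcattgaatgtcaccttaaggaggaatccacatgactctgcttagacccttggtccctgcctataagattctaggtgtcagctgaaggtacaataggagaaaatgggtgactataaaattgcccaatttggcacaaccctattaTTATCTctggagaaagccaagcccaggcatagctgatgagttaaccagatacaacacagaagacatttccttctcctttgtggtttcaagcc
Each of these 4 promoters held 1 match. Its first base lay 46 bases before the start in *Cpa3*, 103 in *Mcpt4*, 79 in *Cma1* and 92 in *Fcer1a*, and the match was on the opposite strand in *Cma1* and *Fcer1a*. The RefSeq promoter table matched 8 of the 10 genes, all but *Tpsb2* and *Tpsab1*, and 6 of the 8 held at least 1 match. *Ms4a2*, whose groups overlapped, held 3, *Hdc* held 1, and neither promoter of *Kit* or of *Gata2* held any. Of 32841 promoters of this length, 26.5% held a match. A match describes letters and does not show binding.

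Of the 3 receptor genes, *Fcer1a* alone separated the groups. *Fcer1a* encodes the IgE-binding α chain of FcεRI, which mast cells and basophils carry. Its values were 5.04, 4.99, 5.21 and 5.15 in WT mice and 4.90, 4.79, 4.56 and 4.92 in *Sucnr1*-/- mice. Its signal was low, with only 24.8% of all genes lower in mean, and RMA compresses differences at such levels. The groups were separated by only 0.06, and the log2 difference was −0.30 (SE 0.10), a ratio of 0.810. It ranged from −0.35 to −0.22 when any one mouse was left out.

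*Ms4a2* encodes the β chain of FcεRI, which amplifies the signal of the receptor. It was dim, with only 5.86% of all genes lower in mean signal, and RMA compresses differences at this level. Its values were 3.76, 4.00, 4.00 and 4.03 in WT mice and 3.82, 3.80, 4.10 and 3.98 in *Sucnr1*-/- mice. The groups overlapped, and the log2 difference of −0.02 (SE 0.09) lay within its error. It was 0.02 without *Sucnr1*-/- replicate 2 and 0.02 with arrays centred on their median.

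*Kit* encodes the receptor tyrosine kinase for stem cell factor. It was at 7.04, 7.16, 7.38 and 7.23 in WT mice and at 7.11, 7.28, 7.06 and 7.04 in *Sucnr1*-/- mice. The log2 difference was −0.08 (SE 0.09), and the groups overlapped. It ranged from −0.14 without WT replicate 1 to −0.02 without WT replicate 3. *Kitl*, the gene of its ligand, ran in the other direction, with every *Sucnr1*-/- mouse above every WT mouse (2.37% of all genes). WT mice were at 9.15 ± 0.08 (SD, n = 4) and *Sucnr1*-/- mice at 9.45 ± 0.12 (SD, n = 4). The log2 difference was 0.30 (SE 0.08; limma, adjusted p = 0.712).

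*Hdc*, which encodes histidine decarboxylase, the enzyme that makes histamine, varied more between mice than between genotypes. Its values were 8.94, 7.64, 7.41 and 7.93 in WT mice and 9.42, 7.28, 7.90 and 7.09 in *Sucnr1*-/- mice. The mice numbered 1 were the highest of each group. The log2 difference was −0.05 (SE 0.52), and the SD within groups of 0.887 was larger than that of 99.1% of all genes. Without *Sucnr1*-/- replicate 1 the difference was −0.55 and without WT replicate 1 it was 0.27. The same mice had the highest mean log2 level of neutrophil markers in their groups, at 6.53 in WT (5.47 to 5.90 in the others) and 7.21 in *Sucnr1*-/- mice (5.48 to 5.79 in the others). Their immediate early genes, which rise within minutes of handling or stress, were also the highest, at 9.27 and 9.01 against at most 8.52 and 8.27 in the others. The part of either set in the *Hdc* values was not tested.

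*Gata2* was the only listed gene with a higher mean in *Sucnr1*-/- mice, by 0.07 (SE 0.11) on the log2 scale. It was at 7.12, 7.57, 7.55 and 7.26 in WT mice and at 7.43, 7.59, 7.34 and 7.43 in *Sucnr1*-/- mice. The groups overlapped, and the sign turned without WT replicate 1 (−0.01). Endothelial markers, of a cell type that also expresses *Gata2*, had a median log2 difference of 0.001, with 6 of 12 lower, and a mean level of 9.64 to 10.15 in WT and 9.72 to 9.92 in *Sucnr1*-/- mice.

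Between mice of the same genotype the listed genes did not vary as 1 set. After the group means were subtracted, the mean Pearson correlation over the 45 gene pairs and 8 arrays was 0.124, as a description with no test. *Tpsb2*, *Mcpt4* and *Cpa3* varied together, with r = 0.948 for *Tpsb2* and *Mcpt4*, 0.796 for *Cpa3* and *Mcpt4* and 0.703 for *Tpsb2* and *Cpa3*. *Cma1* did not follow *Tpsb2* (r = 0.04). It ran against *Hdc* (r = −0.818) and *Tpsab1* (r = −0.807), and these were alike (r = 0.868), while *Kit* and *Gata2* went together at 0.715. Without WT replicate 3, the highest mouse for the 3 coupled proteases, the mean over all pairs was −0.01. All genes were read from the same 8 arrays, so they share whatever set 1 array apart.

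**Figure D2:**
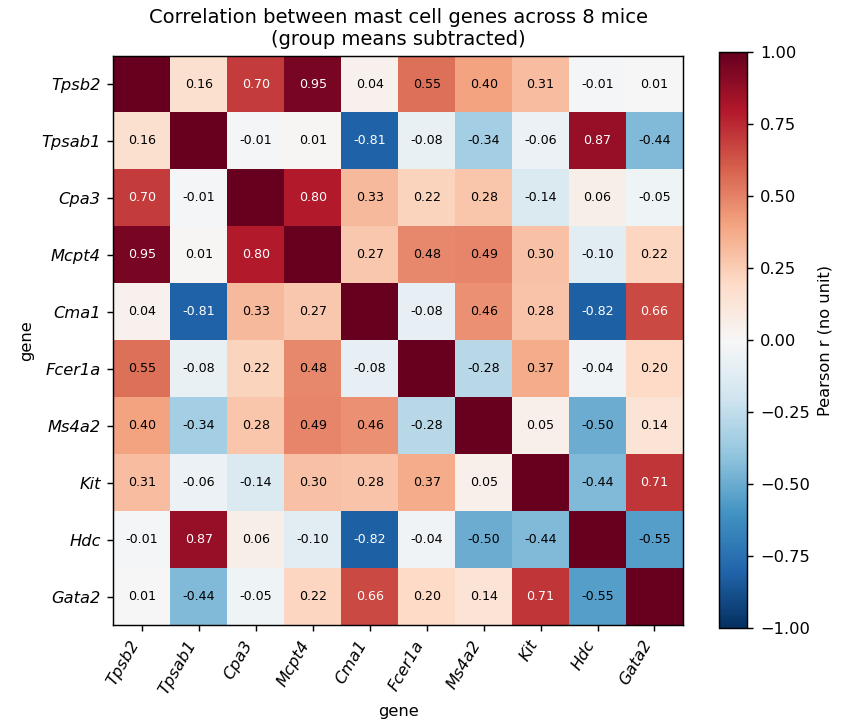
Pearson correlation of log2 expression between each pair of the 10 genes (both axes) over 8 arrays after the mean of each genotype was subtracted, from blue (−1) to red (1), with r in each cell. *Tpsb2*, *Cpa3* and *Mcpt4* form a red set, and *Hdc* and *Tpsab1* are blue against *Cma1*.

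Mast cell proteases lie in gene clusters. All measured neighbours of the listed genes had WT means below the array medians, and *Gzmb* was the brightest of them. Most of them differed by near 0, where *Gzmb* did not. In RefSeq order the tryptase cluster from *Prss34* to *Tpsg1* holds 6 genes, of which 5 were measured. *Prss34*, *Prss28* and *Prss29* differed by −0.12 to 0.002 on the log2 scale, beside −0.73 for *Tpsb2*. The chymase cluster from *Cma1* to *Gzmb* holds 17 genes, 11 of them measured. The 9 that were not listed differed by −0.61 to 0.13, and in 0 of the 9 was each *Sucnr1*-/- mouse below all WT mice (1.87% of all genes). *Mcpt1* and *Mcpt2*, the chymases of mucosal mast cells, were dim at a WT mean of 3.83 and 3.84 and differed by −0.02 (SE 0.08) and −0.02 (SE 0.06). *Mcpt8*, a protease of basophils, was at a WT mean of 4.14 and differed by 0.13 (SE 0.11). The lowest of the 9 was *Gzmb*, which encodes granzyme B of cytotoxic lymphocytes, at −0.61 (SE 0.31). None of the 12 neighbours was at an unadjusted limma p under 0.05 (6.82% of all genes). *Gzmb* had a WT mean of 5.99. The other neighbours had WT means from 3.66 (*Gzmd*) to 4.86 (*Prss34*). All of these and *Gzmb* lay below the array medians of 6.28 to 6.36, as did the listed *Cma1* (6.18) and *Tpsab1* (4.76). RMA compresses differences at such levels, so these neighbours could hide a difference. These clusters were picked after the values had been seen.

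**Figure D3:**
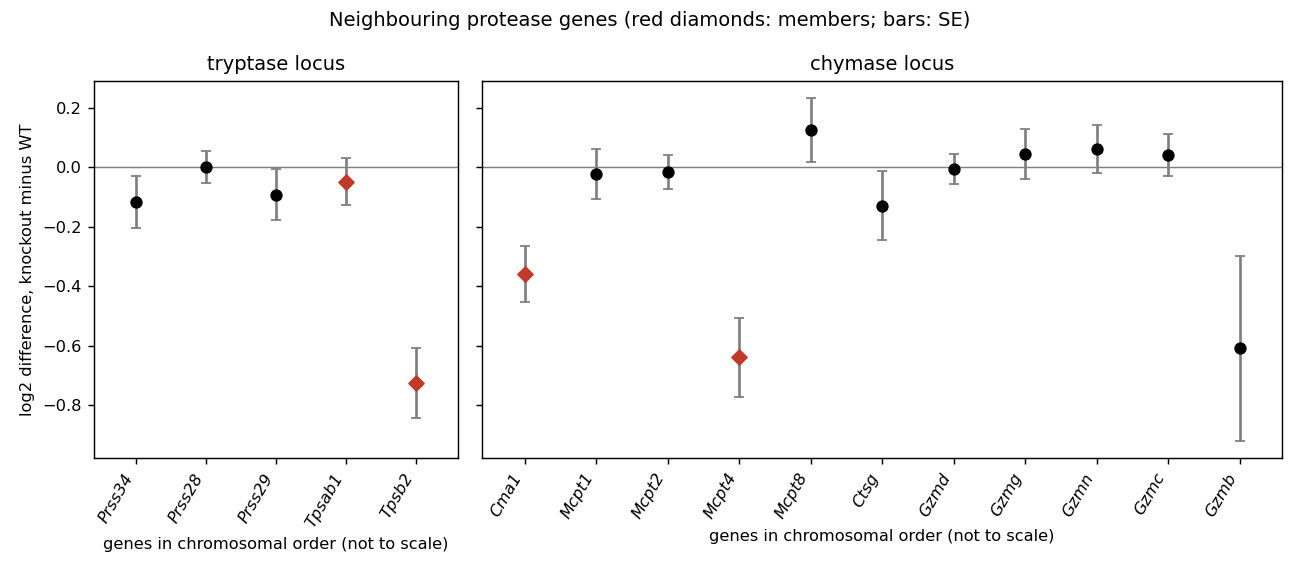
Log2 difference, *Sucnr1*-/- minus WT, with its SE (vertical axis) for the measured genes of the tryptase cluster (left) and the chymase cluster (right) in chromosomal order, not to scale. Red diamonds are listed genes and black circles their neighbours. *Tpsb2*, *Mcpt4* and *Cma1* lie below 0, and *Gzmb* is low with a wide SE. *Tpsab1* lies near 0 with most neighbours, which like it are dim.

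Of 31 other genes of mast cell granules, receptors and surface, 27 were measured. Of these, 21 had a lower mean in *Sucnr1*-/- mice (46.8% of all genes), and the median log2 difference of the 27 was −0.19. After adjustment over all genes limma called 0 of them. Unadjusted, 4 were lower (3.36% of all genes) and 1, *Ptger3*, was higher (3.46%), at 0.48 (SE 0.20). In all, 6 had higher means, among them *Cd33* at 0.31 (SE 0.14) and *Maob* at 0.26 (SE 0.13). *Slc18a2*, the vesicular transporter that loads histamine into granules, was at 5.39, 5.46, 5.59 and 5.54 in WT mice and at 5.26, 5.29, 5.27 and 5.33 in *Sucnr1*-/- mice. It was dim, with a WT mean of 5.49 below the array medians of 6.28 to 6.36. The groups did not overlap, as in 2 of the 27 genes (1.87% of all genes), and the difference was −0.21 (SE 0.06; limma, adjusted p = 0.712). *Cd63*, a granule membrane protein that many other cells also carry, differed by −0.37 (SE 0.09) without overlap. *Milr1*, an inhibitory receptor of mast cells also called allergin, differed by −0.71 (SE 0.26) and *Serpinb1a*, an inhibitor of granule proteases in leucocytes, by −0.65 (SE 0.26). *Milr1* rested partly on WT replicate 1, without which the difference was −0.46. *Mrgprb2*, the receptor through which peptides and drugs activate connective tissue mast cells, was dim at a WT mean of 4.855. It differed by −0.23 (SE 0.12) and its relative *Mrgprb1* by −0.54 (SE 0.24). For *Mrgprb1* WT replicate 3 was again the highest mouse, at 6.13 against 4.91 to 5.57 in the other WT mice and 4.70 to 5.09 in *Sucnr1*-/- mice.

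**Figure D4:**
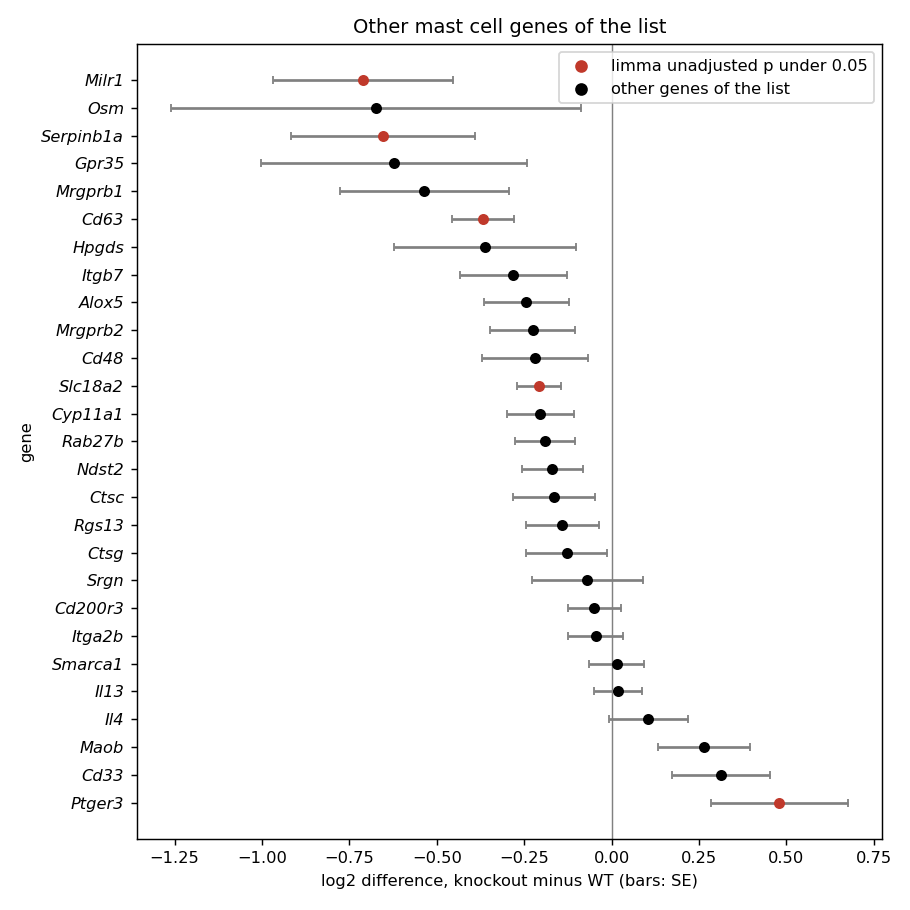
Log2 difference, *Sucnr1*-/- minus WT, with its SE (horizontal axis) for 27 measured genes of mast cell granules, receptors and surface that are not among the 10 listed genes. Red points are at an unadjusted limma p under 0.05, 4 of them lower and 1 higher, and 21 of the 27 points lie left of 0.

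Downstream of FcεRI, 18 of 25 measured signalling genes had lower means (46.8% of all genes), with a median of −0.21. Unadjusted, 3 were lower (3.36% of all genes) and none higher. They were *Lat2*, an adaptor, at −0.63 (SE 0.19), *Fcer1g*, the γ chain that FcεRI shares with Fc receptors of macrophages, at −0.35 (SE 0.14), and *Pik3cg*, a lipid kinase, at −0.35 (SE 0.15). For *Lat2* each *Sucnr1*-/- mouse lay below every WT mouse (1.87% of all genes). *Pik3cg* was at −0.21 without WT replicate 1. Genes of prostaglandin D2 and leukotriene synthesis and their receptors gave 8 lower means of 12. *Cysltr1*, a receptor for cysteinyl leukotrienes, was lower unadjusted and without overlap (1.87% of all genes). For this gene WT mice were at 8.84 ± 0.15 (SD, n = 4) and *Sucnr1*-/- mice at 8.48 ± 0.10 (SD, n = 4). *Alox5*, which starts leukotriene synthesis, differed by −0.24 (SE 0.12) and by −0.15 without *Sucnr1*-/- replicate 2. Of 15 mast cell transcription factors 10 had lower means and 5 higher, and 1, *Spi1*, was lower unadjusted at −0.38 (SE 0.16). The next by p, *Cebpa* at 0.21 (SE 0.09) and *Gata1* at 0.27 (SE 0.13), were higher but not under the unadjusted threshold. *Spi1* also drives macrophages. Among 8 genes of histamine receptors and breakdown 5 were lower, and the 9 basophil genes gave 6 lower means, with none at an unadjusted p under 0.05 in either list (6.82%). *Hnmt*, which methylates histamine, differed by 0.26 (SE 0.13) and by 0.17 without WT replicate 1. Of 21 genes for KIT signalling and growth factors 14 had lower means, and *Kitl* alone was at an unadjusted p under 0.05. After adjustment limma called 0 genes of these lists.

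Macrophage and lymphocyte markers also had mostly lower means in the same *Sucnr1*-/- mice. Of 17 macrophage markers 15 had lower means (46.8% of all genes) and 4 were lower unadjusted (3.36%), with a median log2 difference of −0.24. The mean level of the 17 was 10.23 to 10.61 in WT and 9.98 to 10.28 in *Sucnr1*-/- mice. *Adgre1*, the gene of F4/80, differed by −0.50 (SE 0.15) and *Cd68* by −0.49 (SE 0.15), while *Mertk* ran the other way at 0.44 (SE 0.12). The medians were −0.77 for 9 lymph node and B cell markers (mean level 5.74 to 7.72 in WT, 5.30 to 6.33 in *Sucnr1*-/- mice) and −0.36 for 8 T cell markers (6.17 to 7.18 and 6.04 to 7.04). The ranges of the mean level of all 3 lists overlapped between the groups. Single macrophage markers did separate them. For 2, *Adgre1* and *Cd68*, each *Sucnr1*-/- mouse lay below every WT mouse (1.87% of all genes). For 1, *Mertk*, each lay above (2.37%). Lower means were found for 5 of 11 innate lymphoid and eosinophil, 6 of 10 stromal, 8 of 9 mesothelial, 4 of 6 smooth muscle, 4 of 9 skeletal muscle and 2 of 3 nerve markers, and for 11 of 14 immediate early genes, with a median of −0.26. Adipocyte and neutrophil markers ran mostly the other way, with 1 of 11 and 2 of 10 lower and medians of 0.07 and 0.12. The mean of the 5 proteases, which were chosen on these values, was 7.04 to 7.33 in WT and 6.44 to 6.68 in *Sucnr1*-/- mice. The order of the mice was in part shared with the other lists. *Sucnr1*-/- replicate 2 was the lowest *Sucnr1*-/- mouse for the proteases (6.44), macrophage markers (9.98) and lymph node and B cell markers (5.30), and WT replicate 3 was the highest WT mouse for the proteases (7.33), T cell markers (7.18) and *Adgre1*. WT replicate 1 was the highest WT mouse for macrophage and lymph node and B cell markers and the lowest for *Mcpt4*. The part of the other leucocyte genes in the protease values was not tested.

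**Figure D5:**
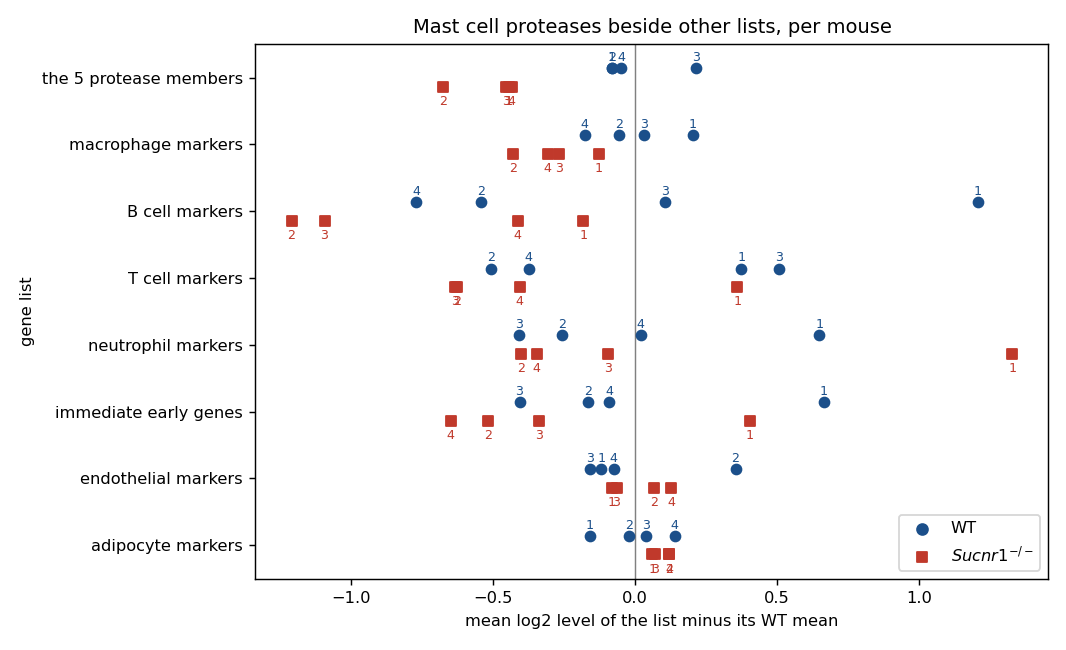
Mean log2 level of each gene list minus its mean in WT mice (horizontal axis) for the 5 proteases and 7 other lists (rows), with WT mice as blue circles and *Sucnr1*-/- mice as red squares, each with its replicate number. The proteases were chosen on these values, so their separation is not comparable with that of the other lists. *Sucnr1*-/- mouse 2 lies farthest left for proteases, macrophage and B cell markers, and mouse 1 of each genotype lies farthest right for neutrophil markers and immediate early genes.

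Genes that varied like the mean of the 10 listed genes between mice of the same genotype, among 4719 genes with above-median level and spread, were led by *Clec7a*, a receptor for fungal glucans on macrophages (r = 0.926 over 8 arrays), *Lyz1*, a lysozyme (r = 0.924), and *Cyp4f18*, a fatty acid hydroxylase of leucocytes (r = 0.916). Against the mean of the 5 proteases alone, a comparison chosen after seeing the data, the leading genes were *Pla2g7*, an acetylhydrolase of platelet-activating factor (r = 0.958), *Adgre1* (r = 0.890) and *Tbxas1*, which makes thromboxane (r = 0.888), all carried by macrophages. These correlations are the highest among all genes compared and are given as a description. The mean of the 10 genes was not scaled by gene, so *Hdc*, with an SD within groups of 0.887 against at most 0.261 in the others, weighed most. The listed genes followed it unequally, from r = 0.712 for *Tpsb2* to −0.309 for *Cma1*. *Kit* (0.03), *Ms4a2* (−0.04) and *Gata2* (−0.09) hardly followed it.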

How the data were processed

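RNA of epididymal white adipose tissue was measured on 8 Affymetrix whole-transcript arrays, 1 per mouse. The deposited values are log2 expression that the authors made with RMA, per the labels. Its version, a genome build and hybridisation dates are not given in the sources used here, so no batch could be examined. RMA removes differences in total signal between arrays and compresses low values.

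Of the 35556 probe sets, 21218 carried exactly 1 gene symbol, and 1881 with several were used only where *Mcpt4* is described. The brightest stood for each of the 1386 genes with more than 1 probe set, which gave 18820 genes. No gene was left out as dim. WT and *Sucnr1*-/- arrays were compared by lmFit and eBayes of limma 3.58.1 under R 4.3.3, and p-values were adjusted by Benjamini-Hochberg across the 18820 genes (threshold 0.05). The procedure was run on simulated data in which genes varied independently. That run checked the code and does not bear on the listed genes. Precision is set by having 4 arrays in each group. The labels give each replicate as its own mouse. No detection call accompanies a dim gene.

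The members and lists were chosen with earlier results of these data known. Named genes are the 10 members, *Sucnr1*, up to 4 genes of each pathway list by smallest p and the 15 genes most like the members. The other genes of the protease clusters, *Mrgprb1*, *Mrgprb2*, *Ptger3*, *Cd33* and the markers were named after their values were seen. Other settings were robust regression, array weights, a prior that follows intensity, quantile normalization, 2 median centrings, the replicate number as a block, averaged probe sets, dropping the dimmest 40% of genes, dropping arrays and the methods' t-test. Promoter letters came from RefSeq (GRCm38.p6). Plots were made in Python 3.11.15 (matplotlib 3.10.9).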

Additional observations from a re-analysis of the deposited data

Results flagged for a closer look

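Of 64 groups of 4 mice examined, 4 had a mouse far from the others, where chance sets apart about 1 in 20. *Ms4a2* was at 3.76 in WT replicate 1 against 4.00 to 4.03 in the other WT mice. The mean log2 level of the 2 measured proteases of mucosal mast cells was 3.92 in WT replicate 4 against 3.79 to 3.81. For histamine receptors and breakdown it was 6.38 in *Sucnr1*-/- replicate 2 against 6.33 to 6.34, and for endothelial markers 10.15 in WT replicate 2 against 9.64 to 9.72.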

How the results depend on the processing

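*Tpsb2*, *Cpa3*, *Mcpt4*, *Cma1* and *Fcer1a* stayed lower and at an unadjusted p under 0.05 in each alternative that kept all genes. The genes were selected on this contrast and every alternative reuses the same arrays. Their staying under the threshold is therefore a description and not a test of them. Without the 40% of genes of lowest mean, 3 members were counted, since *Cma1* and *Fcer1a* are among the genes left out. No member passed after adjustment in any alternative. Robust regression called 15 genes after adjustment and 2449 unadjusted. Leaving out each mouse in turn gave 0 adjusted calls, and the unadjusted count ranged from 808 (without *Sucnr1*-/- replicate 2) to 1659. The count of members stayed at 5, the median of the members ranged from −0.32 (without *Sucnr1*-/- replicate 1) to −0.15, and the mean correlation of the members from −0.00535 (without WT replicate 3) to 0.18. The split of unadjusted genes was 652 higher and 632 lower. It became 1352 and 330 with arrays centred on the median of the genes, 355 and 979 when centred on the median of all probe sets, a setting chosen after seeing the data, and 369 and 535 without the dimmest genes. The cause was not tested. *Mcpt1* (0.0179 with median centring; −0.0692 to 0.0412 over left-out mice), *Mcpt2* (0.0237 with median centring and 0.00372 with robust regression; −0.0341 to 0.00781 over left-out mice) and *Hrh4* (0.00435 with median centring) turned sign near 0. With both mice numbered 1 left out, chosen after seeing the data, 5 members were counted, beside 669 genes higher and 779 lower. With the replicate number as a block, 5 members and 1905 genes were at an unadjusted p under 0.05 (809 higher, 1096 lower). Deviations of mice sharing a number correlated at 0.454, 0.141, 0.106 and 0.015 for numbers 1 to 4, and 4 of the 8 mice correlated best with their own number. The main fit did not take the numbers as pairs. Whether they mark a shared order or batch was not tested. Low RMA signal limits *Fcer1a*, *Tpsab1*, *Ms4a2*, *Mcpt1*, *Mcpt2* and the other dim neighbours in the protease clusters, and to a lesser degree *Cma1*.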
